A study of Homo sapiens with 4 samples.

Results

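The genes HPGD, PLA2G2A, TMPRSS11E, SPP1, DMD, GAD1, NEURL1, PRAC1 and C9orf135 were followed across human embryonic stem cells and blastoids. They are 9 of the 23364 genes listed in the series. They were chosen because their transcripts stood out in the few blastoid cells that still carried pluripotency transcripts, against the other blastoid cells and against stem cells. Their levels in those comparisons are therefore given as descriptions, without a test. A cell was used with at least 500 detected genes, and a gene counted as detected with 1 or more UMIs, the molecular tags that mark single RNA molecules. Blastoid cells with 3 or more detected of POU5F1, SOX2, NANOG, TDGF1 and PRDM14 are called pluripotent-gate cells, and the remaining blastoid cells are called other blastoid cells.

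KhES1, a long-established line of human embryonic stem cells, was the source of all cells, so the values describe 1 line. The 2 stem cell samples (hESC 1 and hESC 2) were grown on Matrigel in mTeSR-1 medium. The 2 blastoid samples (blastoid 3 and blastoid 4) were aggregates of the same line, embedded in a thermoresponsive hydrogel and then kept in iBlastoid medium. A blastoid is an aggregate that imitates the blastocyst, the embryo at the stage of implantation. Nothing in the labels says that samples of a group came from separate cultures, so the p-values against stem cells measure the spread between these samples, which may be technical. Pluripotent-gate and other blastoid cells come from the same 2 libraries and were split by expression. The p-values between them, however small, do not measure spread between independent samples.

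The 9 genes do unrelated jobs. Prostaglandins are short-lived lipid signals made from fatty acids that phospholipases A2 release from membranes, and the dehydrogenase encoded by HPGD inactivates them. TMPRSS11E is a serine protease anchored in the plasma membrane, and SPP1 encodes osteopontin, a secreted phosphoprotein that binds integrins and CD44. DMD encodes dystrophin, which links the cytoskeleton to the laminin-rich matrix through a membrane complex. GAD1 makes the transmitter GABA from glutamate, NEURL1 is a ubiquitin ligase of the Neuralized family known for acting on Notch ligands, and PRAC1 is a small nuclear protein encoded beside the HOXB cluster. C9orf135, now named CFAP95 in RefSeq, has been described as a membrane protein of human pluripotent cells and belongs to a family of proteins associated with cilia and flagella. In the embryo, pluripotency belongs to the epiblast, which is held by POU5F1, SOX2 and NANOG, and cells lose these factors as they differentiate.

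The stretches that precede the annotated starts of 4 of the genes are shown because POU5F1 and SOX2, 2 of the gate genes, bind DNA directly, through an octamer and a SOX motif. Each run is the 250 bases upstream of a start, 5′ to 3′ on the gene's own strand, from RefSeq (GRCh38.p14). Capitals mark a match to the octamer ATGCAAA, and lower case marks the rest.
HPGD, chr4:174522894-174523143, minus strand: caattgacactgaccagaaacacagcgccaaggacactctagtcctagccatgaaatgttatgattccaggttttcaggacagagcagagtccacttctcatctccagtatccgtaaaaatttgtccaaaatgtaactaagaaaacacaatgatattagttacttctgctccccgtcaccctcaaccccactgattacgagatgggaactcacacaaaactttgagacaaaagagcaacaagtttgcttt
TMPRSS11E, chr4:68447213-68447462, plus strand: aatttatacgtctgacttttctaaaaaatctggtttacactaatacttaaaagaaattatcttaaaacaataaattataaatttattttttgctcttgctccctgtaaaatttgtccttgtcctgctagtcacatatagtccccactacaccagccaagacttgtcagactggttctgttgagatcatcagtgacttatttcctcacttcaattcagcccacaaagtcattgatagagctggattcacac
DMD, chrX:33339389-33339638, minus strand: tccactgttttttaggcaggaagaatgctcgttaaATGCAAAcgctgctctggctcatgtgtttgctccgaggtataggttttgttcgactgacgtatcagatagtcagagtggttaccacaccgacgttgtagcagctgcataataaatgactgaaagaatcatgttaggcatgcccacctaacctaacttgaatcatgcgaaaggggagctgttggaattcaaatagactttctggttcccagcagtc
C9orf135, chr9:69820567-69820816, plus strand: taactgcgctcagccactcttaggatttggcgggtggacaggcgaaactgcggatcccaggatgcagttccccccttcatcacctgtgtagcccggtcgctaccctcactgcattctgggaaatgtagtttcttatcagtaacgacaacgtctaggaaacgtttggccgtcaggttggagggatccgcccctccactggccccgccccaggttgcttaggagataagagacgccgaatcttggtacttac
RefSeq gave 18 such windows for the 9 genes, because several have more than 1 annotated start. Letters matching ATGCAAA or its reverse complement TTTGCAT stood in 4 of the 18 windows (22.2%), all of them at DMD, where 2 of the 4 windows overlap. The same letters stood in 3.94% of 35116 windows of that length over all genes. In the DMD window above the match lies 215 bases before the start. The SOX letters CATTGT, or ACAATG, were found in 2 windows (11.1%, against 9.29% of all windows), 1 at DMD and 1 at HPGD, the latter 104 bases before the start shown. CTTTGAT, the letters bound by TCF factors, or ATCAAAG, were in 0 of the 18 windows and in 2.26% of all. These matches describe the letters only, and binding was not measured.

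Depth differed between the classes of cell. The samples held 14930662 to 18193164 UMIs, and 2265, 3175, 2289 and 1951 cells were used from hESC 1, hESC 2, blastoid 3 and blastoid 4. The pluripotent gate took 46 of 2289 cells of blastoid 3 (2.01%, exact 95% interval 1.47 to 2.67) and 92 of 1951 cells of blastoid 4 (4.72%, 3.82 to 5.75), a mean of 3.36% ± 1.91 (SD, n = 2). In the stem cell samples, 64.8% and 55.7% of cells passed the same gate. Gated cells were deep, with a median of 11100 and 13788 UMIs against 6172 and 8645 in the other blastoid cells and 5793 and 4996 in the stem cells, and the gate itself favours deep cells. Levels are therefore given as counts per 1000000 (CPM) of UMIs summed over the cells of a class in 1 sample, and shares of cells also after each cell was thinned to 2000 UMIs. All intervals cover counting error only. In such sums, fewer cells with a transcript and less RNA per cell cannot be told apart, so the share of cells is given as well. Of the 138 gated cells, 8 were called doublets by Scrublet.

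Cell barcodes were shared between libraries. Blastoid 4 shared 1035 of its used barcodes with the deposited table of blastoid 3, where the matching barcodes held fewer than 500 genes and were not used. Among them were 85 of the 92 gated cells and 950 of the 1859 other cells of blastoid 4, so the gated cells were affected more. None of the 46 gated cells of blastoid 3 was among them. The stem cell tables shared 1317 barcodes, of which 26 were used in hESC 1 and 1310 in hESC 2. Without these barcodes blastoid 4 kept 7 gated cells, and 7 of the 9 genes were then still higher in both samples' gated cells than in every other sum, with PLA2G2A and NEURL1 at 0 CPM in those 7 cells. Their mean over both blastoid samples was then 476 CPM for HPGD, 200.4 for TMPRSS11E, 223 for DMD, 27.5 for GAD1, 18.7 for PRAC1, 309 for C9orf135 and 97.2 for SPP1. It was 19.6 for PLA2G2A and 6.87 for NEURL1.

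The gated cells carried the pluripotency transcripts that chose them. POU5F1 stood at 999 and 945 CPM in the gated cells of blastoid 3 and 4, 1154 and 1141 in hESC 1 and 2, and 27.7 and 27.2 in the other blastoid cells. SOX2 stood at 304 and 236 CPM, against 313 and 289 in stem cells, and TDGF1 at 314 and 319, against 312 and 332. NANOG stood at 167 and 150 CPM against 85.5 and 92.3, and PRDM14, a pluripotency repressor of lineage genes, at 27.5 and 23.2 against 8.45 and 10.7. The gate selected blastoid cells on these 5 genes, and the stem cells were not gated, so their levels were not tested. Markers of other cell types were present at low levels in the gated cells. The summed level of 5 genes of amnion and trophectoderm (GABRP, VTCN1, ISL1, TFAP2A, GATA3) was 51.0 and 81.5 CPM in gated cells, 279 and 460 in other blastoid cells and 10.6 and 8.92 in stem cells, where 4 of the 5 were at 0. For 5 genes of mesenchyme (COL1A1, COL3A1, LUM, DCN, PITX1) it was 120 and 162, 2570 and 1931, and 13.6 and 15.5 CPM, with 4 of the 5 at 0 in stem cells. Their part in the results was not tested. Of the 138 gated cells, 11 had 3 or more genes of 1 of these sets, and without them all 9 genes were still higher in both gated sums than in the other 4.

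Read across the 6 sums, the 9 genes fell into 3 patterns. Each was higher in both gated sums than in all 4 other sums. HPGD, PLA2G2A, TMPRSS11E, DMD and GAD1 were barely detected in stem cells and held an intermediate level in other blastoid cells, while NEURL1 and PRAC1 were not counted in stem cells at all. C9orf135 was the reverse, with more in stem cells than in other blastoid cells, and SPP1 was low and nearly level in both. As a count, 9 of 9 passed the edgeR threshold (adjusted p under 0.05) as higher in gated cells than in stem cells, where 7.35% of 16636 tested genes were higher and 6.22% lower. As higher than in other blastoid cells 8 of 9 passed, where 12.7% of genes were higher and 14.2% lower (26.8% in all). Both contrasts chose the genes, so nothing is read from these counts. PRAC1 is the exception in the second, with a log2 difference of 0.90 ± 0.39. The median log2 difference of the 9 was 7.89 against stem cells and 3.21 against other blastoid cells, beside -0.05 and -0.09 over all tested genes.

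**Figure D1:**
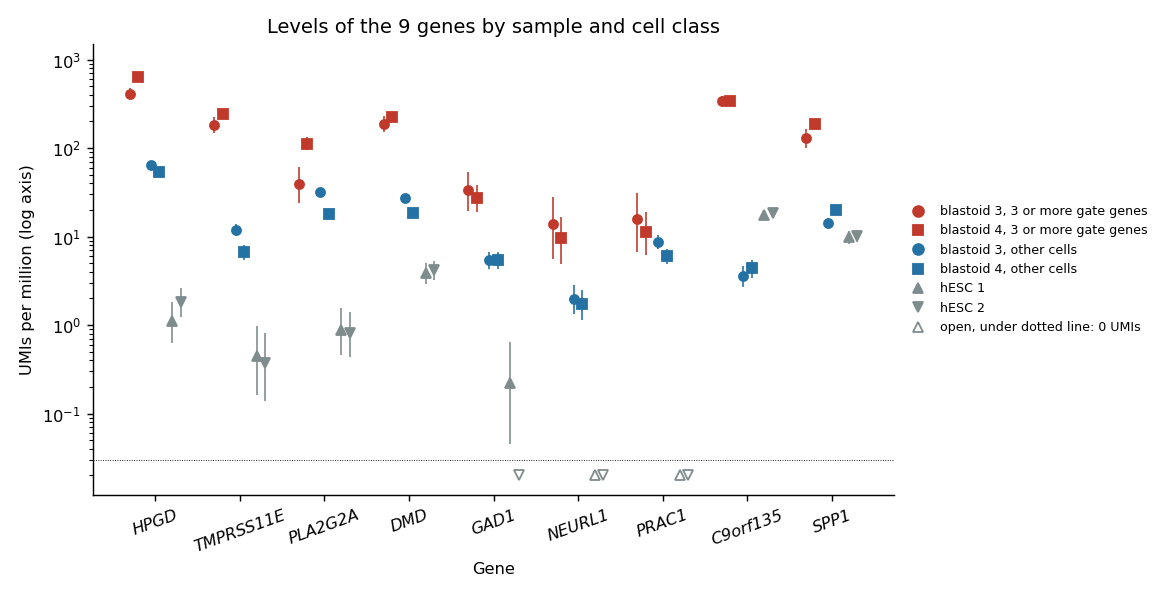
Levels of the 9 genes in the 6 sums, in CPM on a log axis; each point is the sum of 1 class of cells in 1 sample, and open symbols below the dotted line are sums with 0 UMIs. The gated sums stand highest for each gene, the distance to other blastoid cells is smallest for PRAC1 and PLA2G2A, and C9orf135 is the gene with other blastoid cells lowest.

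HPGD was the most abundant of the 9 in gated cells on the UMI scale. It lies on the minus strand of chromosome 4 (chr4:174490175-174522893, GRCh38.p14). Its level in the gated cells was 412 CPM in blastoid 3 and 641 in blastoid 4 (mean 527 ± 162 SD, n = 2), from 210 and 803 UMIs. The other blastoid cells had 64.3 and 53.7 CPM and the stem cells 1.11 and 1.82. No 2 classes overlapped, and the gated cells of blastoid 4 were the highest. Pooled over samples the ratio was 384 against stem cells (95% counting interval 284 to 532) and 9.80 against other blastoid cells (9.07 to 10.6), with 6.41 within blastoid 3 and 11.9 within blastoid 4. HPGD transcripts were found in 82.6% and 88.0% of gated cells, 8.38% and 10.8% of other blastoid cells and 0.618% and 0.693% of stem cells. At 2000 UMIs per cell the shares over both samples were 51.1%, 4.93% and 0.248%.

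PLA2G2A, a secreted phospholipase A2, was uneven. It lies on the minus strand at chr1:19975431-19980434. Gated cells held 39.3 CPM in blastoid 3 and 112.6 in blastoid 4 (75.9 ± 51.9 SD, n = 2), against 31.7 and 18.0 in other blastoid cells and 0.890 and 0.817 in stem cells. In blastoid 3 the gated level was thus 1.24 times that of the other cells of the same sample, and in blastoid 4 it was 6.26 times. The excess in blastoid 4 sat in few cells: 15 of 92 gated cells (16.3%) had a transcript, 1 cell held 35 UMIs, and the 10% of cells with the most held 96.5% of the UMIs. In blastoid 3, 13 of 46 (28.3%) had a transcript and none had more than 3 UMIs. Without blastoid 4 the log2 difference from other blastoid cells was 0.29, and without the shared barcodes it was 0.24. Against stem cells the pooled ratio was 107.5 (70.3 to 171).

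Genes around these 2 enzymes were counted from fixed lists. Of 16 tested genes of prostaglandin synthesis, breakdown, transport and reception, 1 rose and 3 fell in gated cells against stem cells, beside 7.35% and 6.22% over all tested genes, and the list's median log2 difference was 0.79. The riser was CBR1, a carbonyl reductase that can act on prostaglandins, at 597 and 515 CPM in gated cells, 168 and 195 in stem cells and 81.9 and 77.3 in other blastoid cells (log2 difference from stem cells 1.47 ± 0.14, edgeR adjusted p = 8.96e-05). CBR1 was also higher than in other blastoid cells (2.82 ± 0.11, edgeR adjusted p = 2.84e-44), and neither call changed in any alternative run. The 3 that fell, PTGES3, PTGIS and PTGR2, each missed the threshold without hESC 1 (edgeR adjusted p = 0.134, 0.0737 and 0.122) or without hESC 2 (0.0921, 0.107 and 0.0834). PTGS2, the inducible cyclooxygenase, had 1 UMI in the gated cells of each sample. Of 10 tested phospholipases A2, 0 rose and 1 fell: the cytosolic PLA2G4C had 0 and 1 UMIs in gated cells and 757 and 836 UMIs (56.1 and 52.5 CPM) in stem cells (edgeR adjusted p = 1.14e-05). It was also scarce in other blastoid cells, with 2 UMIs in each sample.

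TMPRSS11E, on the plus strand at chr4:68447463-68497604, showed the widest ratio against stem cells among the genes with counts in both. Gated cells held 184.5 and 242 CPM (213 ± 40.6 SD, n = 2), other blastoid cells 11.8 and 6.63, and stem cells 0.445 and 0.377, which is 6 UMIs in each sample. The ratio was 552 against stem cells (313 to 1078) and 24.9 against other blastoid cells (21.3 to 29.1), at 15.6 in blastoid 3 and 36.5 in blastoid 4. Its transcripts were in 82.6% and 89.1% of gated cells and in 4.68% and 3.50% of other blastoid cells. After thinning the shares were 29.9% and 1.34% over both samples, and 0.0496% in stem cells. Of 7 other membrane serine proteases and their inhibitors that could be tested, 1 rose against stem cells and 0 fell. That one, TMPRSS13, was at 0 in the gated cells of blastoid 3, so its call rests on blastoid 4: it was lost without hESC 1 (edgeR adjusted p = 0.11) or hESC 2 (0.0679) and turned direction without blastoid 4 (log2 difference -5.51, 0.727).

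SPP1 encodes a ligand and lies at chr4:87975714-87983411 on the plus strand. Gated cells held 130 and 186 CPM (158 ± 40.0 SD, n = 2), other blastoid cells 14.3 and 20.1, and stem cells 9.79 and 10.1. The gated sums were 17.0 times the stem cell level (14.5 to 20.1) and 9.74 times that of other blastoid cells (8.43 to 11.2), and this second ratio was alike in both samples, at 9.04 and 9.24. Transcripts were seen in 65.2% and 69.6% of gated cells and in 5.30% and 4.76% of stem cells, so SPP1 was not peculiar to the blastoid. Of 9 tested osteopontin receptors and related matrix genes, 4 rose against stem cells and 0 fell, with a list median of 1.05. Over all tested genes 7.35% rose and 6.22% fell. In other blastoid cells 7 of the 9 were higher than in stem cells and 0 lower, beside 26% and 23.6% of all tested genes. ITGB1, the common integrin beta chain, stood at 609 and 597 CPM against 261 and 268 in stem cells (1.05 ± 0.15, edgeR adjusted p = 0.00117). Other blastoid cells held 510 and 399 CPM of ITGB1, so its rise was largely shared by them. ITGA8, an integrin alpha chain that pairs with it, passed on 2 UMIs in each gated sum against 0 in stem cells (edgeR adjusted p = 0.00544) and was lower than in other blastoid cells, at 18.8 and 17.9 CPM (-2.96 ± 0.52, edgeR adjusted p = 1.59e-06). CD44 and ITGA9 also passed, and each lost its call without hESC 1 (edgeR adjusted p = 0.159 and 0.0898), without hESC 2 (0.0969 and 0.0849) and without blastoid 4 (0.512 and 0.108), and ITGA9 without blastoid 3 as well (0.116).

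DMD, the longest of the 9 genes, spans chrX:31119222-33339388 on the minus strand. Gated cells held 186 and 225 CPM (206 ± 27.4 SD, n = 2), other blastoid cells 27.1 and 18.6, and stem cells 3.86 and 4.15. The ratio was 53.3 against stem cells (43.3 to 66.2) and 9.49 against other blastoid cells (8.35 to 10.8). Transcripts were in 73.9% and 70.7% of gated cells, 10.8% and 10.3% of other blastoid cells and 2.25% and 2.02% of stem cells. Counts from the 3′ end do not tell which of the gene's several promoters was used. The rest of the dystrophin complex did not move as a block. Of 18 tested genes, 4 rose and 1 fell against stem cells, with a median of -0.18. LAMC1, the laminin gamma chain of the matrix to which the complex binds, stood at 349 and 322 CPM in gated cells, 66.2 and 77.2 in stem cells and 183 and 131 in other blastoid cells (2.09 ± 0.17 against stem cells, edgeR adjusted p = 2.32e-05). It was higher than in other blastoid cells too (1.15 ± 0.11, edgeR adjusted p = 1.51e-15). LAMA2, the laminin alpha chain of muscle, had 29.4 and 7.19 CPM against 1.71 and 2.58 (2.67 ± 0.58, edgeR adjusted p = 0.012), and missed the threshold without hESC 1 (0.0667) or blastoid 3 (0.0691). The calls of DTNA (higher) and SNTB1 (lower) were lost without hESC 1 (edgeR adjusted p = 0.103 and 0.136) or hESC 2 (0.0901 and 0.156), and SNTB1 also without blastoid 4 (0.385).

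GAD1 was lower. It lies at chr2:170813210-170861151 on the plus strand. Gated cells held 33.4 and 27.2 CPM (30.3 ± 4.40 SD, n = 2) from 17 and 34 UMIs, other blastoid cells 5.44 and 5.39, and stem cells 0.222 and 0, which is 3 UMIs in all. GAD1 is not listed in the table of hESC 2 and was taken as 0 there. The ratio against stem cells was 284 with a counting interval of 91.8 to 1421. With 2 molecules allowed in the table that omits it, 5 in all, the ratio was 170 (68.4 to 547). The ratio against other blastoid cells was 5.35 (3.84 to 7.36), at 6.14 and 5.04 in the 2 samples. Its transcripts were in 32.6% and 28.3% of gated cells and in 3.17% and 4.36% of other blastoid cells. Annotated antisense transcripts overlap GAD1 and NEURL1, and C9orf135 has a divergent partner. The strand setting of the counting is not given in the sources used here, so reads from these partners cannot be told apart from those of the genes.

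Of 13 tested genes of GABA handling, 2 rose and 0 fell against stem cells, with a median of 0.07. GABRB2, a GABA-A receptor beta chain, had 11.8 and 4.79 CPM (6 UMIs in each gated sum) against 0.815 and 0.503 in stem cells (3.29 ± 0.65, edgeR adjusted p = 0.00722), while other blastoid cells held 17.6 and 11.8. GLUD1 (0.66, edgeR adjusted p = 0.0214) missed the threshold without hESC 1 (0.173), hESC 2 (0.127) or blastoid 4 (0.0946).

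NEURL1 rested on few molecules. It lies at chr10:103493705-103592546 on the plus strand. Gated cells held 13.7 and 9.58 CPM (11.7 ± 2.94 SD, n = 2), which is 7 and 12 UMIs, and other blastoid cells 1.97 and 1.72. The stem cell tables do not list it. Allowing for molecules that such a table may omit (9.15 counts over both stem cell samples), its level in gated cells was at least 34.6-fold higher than in stem cells. The ratio against other blastoid cells was 5.88 (3.31 to 10.0). At 2000 UMIs per cell only 0.730% of gated cells kept a transcript, against 0.253% of other blastoid cells, which is the level of 1 gated cell and gives no order. Of 18 other tested genes of Neuralized, Mind bomb and Notch, 3 rose and 2 fell against stem cells, with a median of -0.33. HEY2, a transcriptional repressor induced by Notch, stood at 53.0 and 51.9 CPM against 14.4 and 13.9 in stem cells and 19.8 and 14.4 in other blastoid cells (1.76 ± 0.22 against stem cells, edgeR adjusted p = 0.000421). MIB2, the ubiquitin ligase of Notch ligands in the Mind bomb family, fell to 9.82 and 11.2 CPM from 31.6 and 31.2 (-1.66 ± 0.27, edgeR adjusted p = 0.00243). HES1 rose (1.94, edgeR adjusted p = 0.0234), but not without hESC 1 (0.0881) or hESC 2 (0.0523). It stood at 291 and 83.9 CPM in gated cells and at 1003 and 395 in other blastoid cells, and was lower than there (-1.98 ± 0.12, edgeR adjusted p = 3.53e-28). HEY1 rose against stem cells (3.02, edgeR adjusted p = 0.0181), but not without blastoid 4 (0.403), and it too was lower than in other blastoid cells (-3.35 ± 0.28, edgeR adjusted p = 1.19e-19). MIB1 fell (-0.72, 0.0296), but not without hESC 1 (0.122), hESC 2 (0.171) or blastoid 4 (0.0679).

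PRAC1, on the minus strand at chr17:48721719-48722518, was the weakest case. Gated cells held 15.7 and 11.2 CPM (13.4 ± 3.20 SD, n = 2) from 8 and 14 UMIs, and other blastoid cells 8.76 and 5.98. It is not listed in the stem cell tables, and on the same allowance as for NEURL1 it was at least 40.1-fold higher in gated cells. The ratio against other blastoid cells was 1.72 (1.05 to 2.66), and the gated cells held 8.73% of its blastoid UMIs. With a gate of 2 or more genes the log2 difference in that contrast was 1.23. A list of its neighbours held 10 HOXB genes and PRAC2. Of these 11, 8 rose and 0 fell in gated cells against stem cells, beside 7.35% and 6.22% of all tested genes. All 11 were at 0 in stem cells, so they could differ in 1 direction only. None had more than 11 UMIs in a gated sum, so nothing is read from this count. Against other blastoid cells 9 fell and 0 rose, with a median of -3.23, beside 14.2% and 12.7% of all tested genes. HOXB9 had 15.7 and 7.99 CPM in gated cells and 87.1 and 53.7 in other blastoid cells (-2.61 ± 0.27, edgeR adjusted p = 8.76e-15). HOXB13, the closest HOXB gene to PRAC1, had 0 UMIs in both gated sums and 3.40 and 3.55 CPM in the other blastoid cells.

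Of the 9 genes, C9orf135 differed least between its 2 gated sums in proportion to its level. It lies at chr9:69820817-69906227 on the plus strand. Gated cells held 338 and 343 CPM (341 ± 4.10 SD, n = 2), stem cells 17.7 and 18.5, and other blastoid cells 3.60 and 4.38. The ratio was 18.9 against stem cells (16.8 to 21.2) and 85.1 against other blastoid cells (70.1 to 104), at 93.8 and 78.4 in the 2 samples. Its transcripts were in 87.0% and 89.1% of gated cells, 9.23% and 8.28% of stem cells and 1.25% and 2.26% of other blastoid cells. After thinning these shares were 43.8%, 3.60% and 0.531% over both samples. The mean level in gated cells moved with the choice of cells, to 229 CPM with 2 or more gate genes, 369 with 4 or more and 309 without shared barcodes. In cells with 5 gate genes the samples differed, at 480 CPM in blastoid 3 and 245 in blastoid 4.

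Levels were then followed over the number of gate genes a blastoid cell had, from 0 to 5. The bins held 3431, 575, 96, 43, 73 and 22 cells, and median depth rose with the bin, from 7009 to 13700 UMIs. C9orf135 climbed from 1.41 CPM at 0 genes to 7.83, 51.6, 287 and 376 at 1 to 4 genes, and stood at 325 at 5. SPP1 went from 15.3 to 210 CPM over both samples, though in blastoid 3 it stood at 150 CPM at 4 genes and 110 at 5. HPGD went from 30.7 to 746 CPM at 3 genes and then down to 544 and 382, and TMPRSS11E from 3.40 to 253 at 4 genes and 189 at 5. DMD followed the same course, from 13.6 to 235 and then 166 CPM. These levels pool both samples, and the samples moved alike over the first 4 bins of these 5 genes. PLA2G2A differed: just outside the gate, at 2 genes, it stood at 196 CPM in blastoid 3 and 189 in blastoid 4, and just inside, at 3 genes, at 7.38 and 211. At 4 and 5 genes PLA2G2A stood at 58.4 and 30.0 CPM in blastoid 3 and at 90.8 and 0 in blastoid 4. PRAC1 was at 30.6 and 9.65 CPM at 2 genes and at 51.6 and 8.03 at 3. The gate thus marked no step for PRAC1 in blastoid 4, and its level at 3 genes in blastoid 3 rested on 7 UMIs. At 4 and 5 genes PRAC1 was at 3.65 and 0 CPM in blastoid 3 and at 13.2 and 10.2 in blastoid 4, so it did not keep rising with the gate genes. GAD1 went from 20.4 and 9.65 CPM at 2 genes to 44.3 and 24.1 at 3, and NEURL1 from 0 and 3.86 to 22.1 and 10.7. In blastoid 3 the bins at 3 and at 5 genes held 14 and 8 cells, and in blastoid 4 the bin at 5 genes held 14, so their levels rest on few cells. No test was made.

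**Figure D2:**
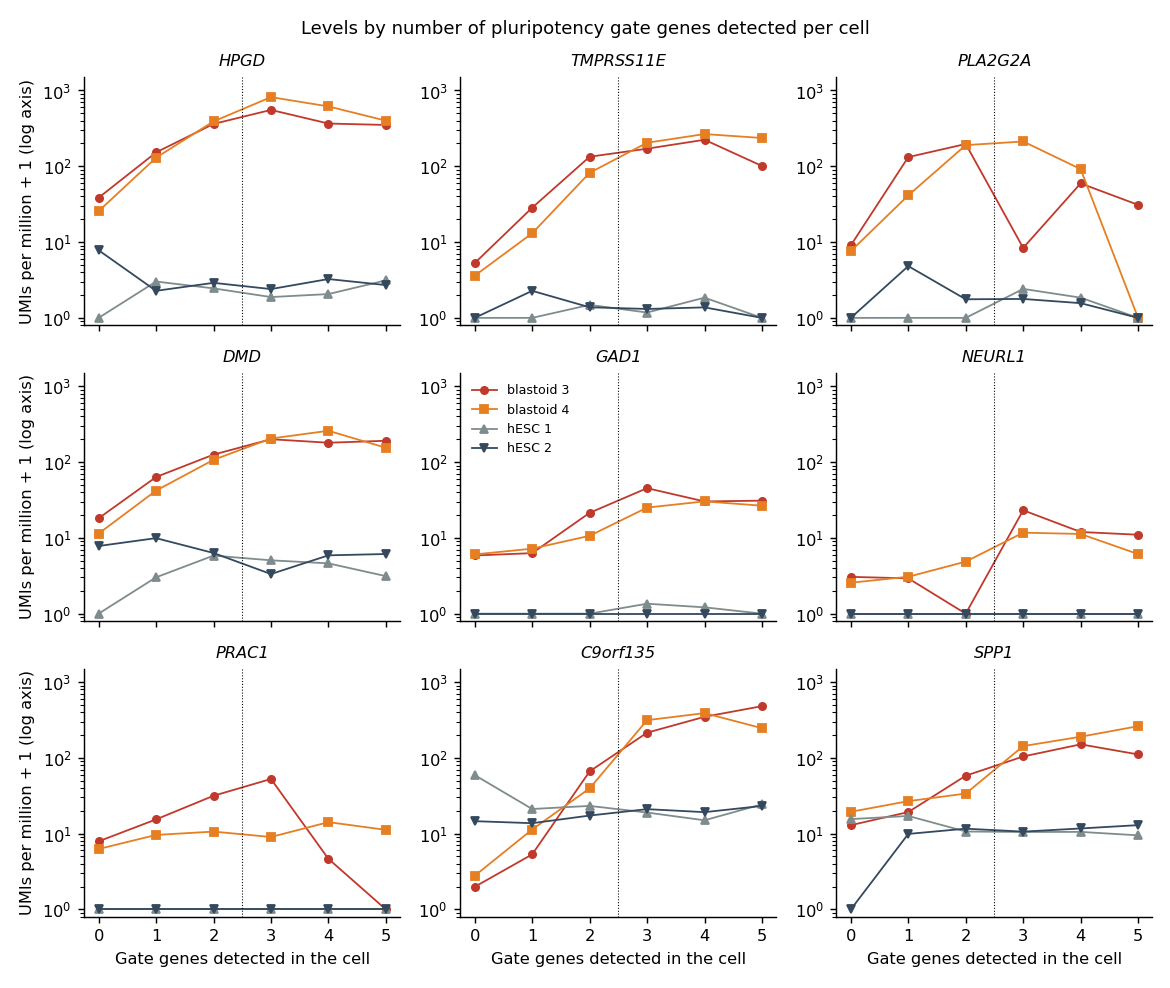
Level of each gene (CPM + 1, log axis) in cells grouped by how many of the 5 gate genes were detected, for each sample; lines join the points of a sample. The dotted line marks the gate. The blastoid curves of HPGD, TMPRSS11E, DMD, C9orf135 and SPP1 rise from 0 to 3 gate genes, PLA2G2A is already high at 2, and the stem cell curves stay low.

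How much of each transcript the gated cells held was also counted. They held 5.28% of all UMIs of the blastoid samples (3.35% in blastoid 3 and 6.90% in blastoid 4). They held 82.6% of the UMIs of C9orf135 (76.4% and 85.3%) and 58.1% of those of TMPRSS11E (35.1% and 73.0%). For HPGD, SPP1 and DMD the shares were 35.3%, 35.2% and 34.6%, and for NEURL1, GAD1 and PLA2G2A they were 24.7%, 23.0% and 17.3%. PRAC1 had 8.73%. Most of the blastoid molecules thus lay in gated cells for C9orf135 in both samples and for TMPRSS11E in blastoid 4, and outside them otherwise. For these others the gated cells stood out in level, and the genes were not confined to them.

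**Figure D3:**
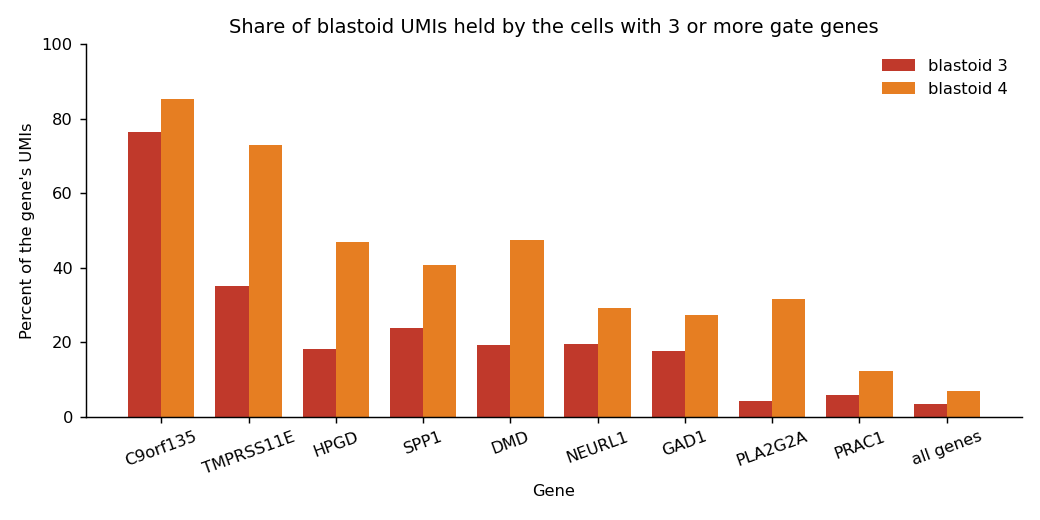
Percent of each gene's blastoid UMIs that lay in pluripotent-gate cells, per sample, with the same percent over all genes for comparison. C9orf135 stands at 76.4% and 85.3%, PRAC1 at 5.84% and 12.2%, and all genes at 3.35% and 6.90%.

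Between the other blastoid cells and stem cells the genes also differed, which the rule did not ask for directly. Both classes supplied values to the choice of genes, so this too is a description without a test. In level, both sums of other blastoid cells stood above both stem cell sums for 8 of the 9 genes and below them for C9orf135. As a count, 8 passed the edgeR threshold as higher and 1 as lower, beside 26% and 23.6% of the 16636 tested genes, and nothing is read from it. The log2 difference was 5.14 ± 0.30 (SE) for HPGD, 5.42 ± 0.57 for GAD1, 4.68 ± 0.47 for PLA2G2A and 4.29 ± 0.40 for TMPRSS11E. It was 2.34 ± 0.21 for DMD, 0.64 ± 0.24 for SPP1 and -2.33 ± 0.18 for C9orf135. The SPP1 difference fell under the threshold in 6 of 13 alternatives, among them leaving out hESC 1, hESC 2 or blastoid 4. NEURL1 and PRAC1 were not counted in stem cells, so they could differ in 1 direction only.

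Outside the gate the genes sat in different cells. Of the 4102 other blastoid cells, 680 had 3 or more of the 5 amnion and trophectoderm markers, 2039 had 3 or more of the 5 mesenchyme markers, 100 had both and 1283 had neither. HPGD stood at 121 CPM in the amnion and trophectoderm set, 109 in cells with neither set and 5.80 in the mesenchyme set. PLA2G2A divided alike, at 54.1, 44.3 and 1.69 CPM, and SPP1 was highest in the amnion and trophectoderm set, at 49.5 CPM against 17.8 and 2.48. By sample, HPGD in the amnion and trophectoderm set was at 211 CPM in blastoid 3 and 86.7 in blastoid 4, and PLA2G2A at 111 and 32.5, so these levels depend on the sample. TMPRSS11E and C9orf135 were highest in cells with neither set, at 23.7 and 9.87 CPM. The 96 other blastoid cells with 2 gate genes, just outside the gate, held 107 of the 286 TMPRSS11E UMIs and 52 of the 127 C9orf135 UMIs of this class. How those cells divide over the marker sets was not counted. DMD stood at 33.0 CPM in the amnion and trophectoderm set, 42.7 in cells with neither and 7.75 in the mesenchyme set, and GAD1 was highest in cells with neither set, at 8.51 CPM against 4.51 and 4.37. PRAC1 was lower in the amnion and trophectoderm set (0.967 CPM) than in mesenchyme (8.86) and in neither (9.87). In that set it was at 2.34 CPM in blastoid 3 and 0.445 in blastoid 4. C9orf135 and NEURL1 were also low in the amnion and trophectoderm set, at 2.09 and 2.90 CPM over both samples. Free RNA was not measured. In the mesenchyme set, where HPGD was lowest, 2.06% of cells had an HPGD molecule, against 23.8% of the amnion and trophectoderm set and 13.0% of cells with neither.

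**Figure D4:**
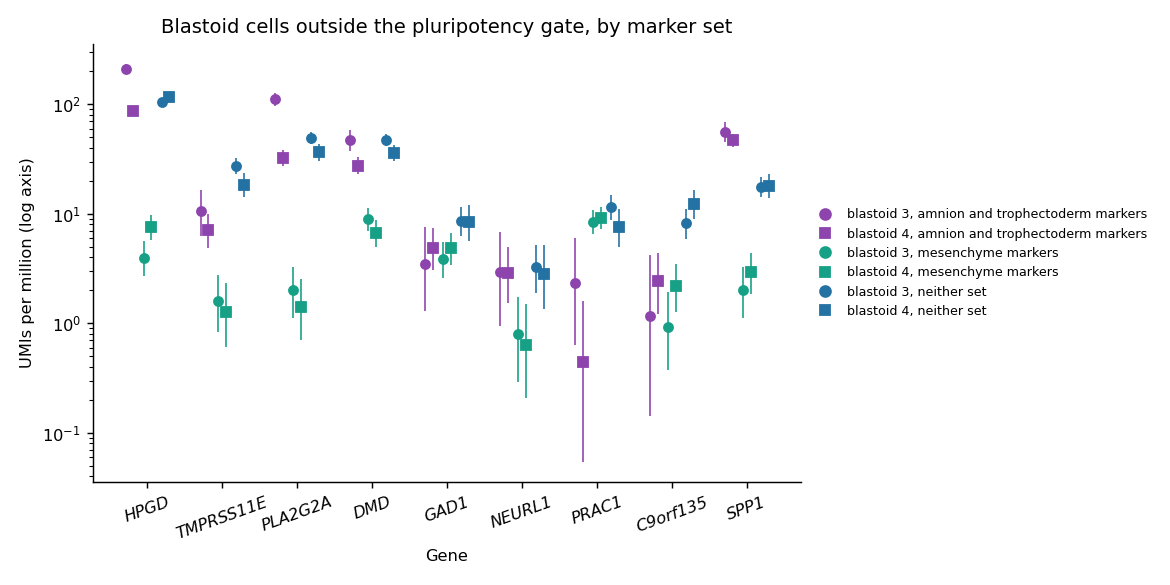
Level of each gene (CPM, log axis) in other blastoid cells by marker set and sample; bars are 95% counting intervals. HPGD, PLA2G2A and SPP1 are higher in the amnion and trophectoderm set than in the mesenchyme set in both samples, and PRAC1 is lower.

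Single gated cells mostly held several of the transcripts at once. The genes were chosen for high levels in these cells, so the shares below are descriptions that the choice favours. Of the gated cells, 40 of 46 in blastoid 3 (87.0%) and 81 of 92 in blastoid 4 (88.0%) had 4 or more of the 9, with a median of 5. The same was true of 28 of 2243 and 23 of 1859 other blastoid cells (1.25% and 1.24%) and of 0 of 2265 and 0 of 3175 stem cells, which allows a share of up to 0.163% and 0.116%. Over the number of gate genes the share rose from 0.175% at 0 genes to 3.13%, 28.1%, 79.1% and 91.8% at 1 to 4, and was 90.9% at 5. Depth enters these shares: thinned to 2000 UMIs, gated cells had a median of 2 genes, and 8.70% and 12.1% had 4 or more, against 0.141% and 0.0550% of other blastoid cells. No cell in any class had more than 7. HPGD, TMPRSS11E and C9orf135 were found together in 30 of 46 and 68 of 92 gated cells. Each alone was in 82.6% to 89.1% of the gated cells of a sample, so many joint detections follow without any link between the genes. Within the gated cells the levels were weakly correlated, as a description over the 46 and the 92 cells of 1 library each. Pearson's r on log-scaled counts was 0.23 and 0.21 for HPGD with C9orf135 and 0.24 and 0.16 for HPGD with TMPRSS11E, and it was -0.32 and -0.25 for TMPRSS11E with PRAC1. In counts this sparse such values are no finding.

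**Figure D5:**
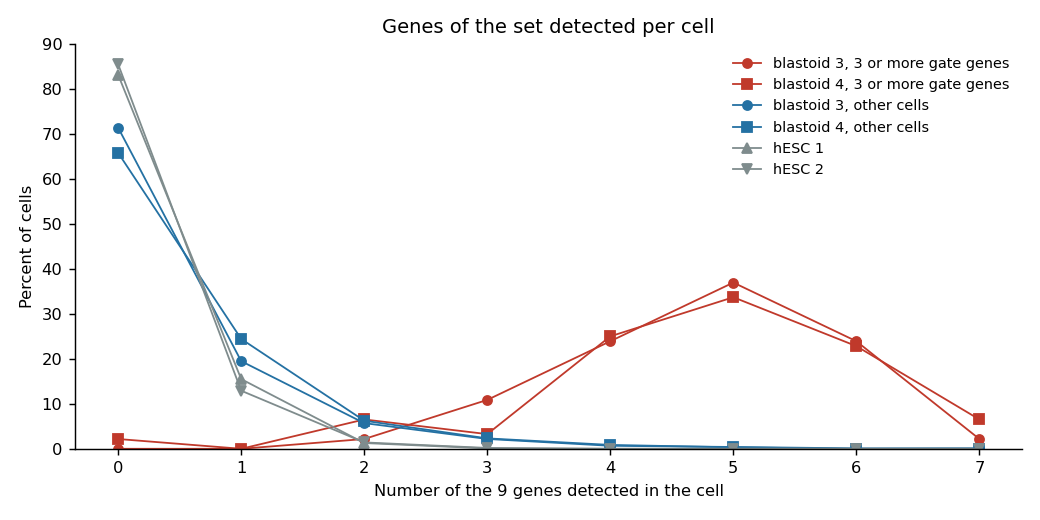
Percent of cells by how many of the 9 genes had at least 1 UMI, per sample and class, without thinning. Gated cells centre on 5 genes, while most other blastoid cells and stem cells had none.

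The genes most like the 9 were then sought by Pearson's r to their mean over 21 profiles of log2(CPM + 10), each 1 sample at 1 number of gate genes. The profiles share libraries and rise in depth together, so r is a description. SP5, a target of WNT signalling, came first (r = 0.99), at 33.4 and 74.3 CPM in gated cells, 8.90 and 6.63 in other blastoid cells, and 0.222 and 0 in stem cells. LINC01356 (0.989), FABP5 (0.973), PCSK1 (0.965) and KLF5 (0.962) followed, then PCAT14, CFD, TBXT and CCPG1 (0.954 to 0.946). TBXT, the brachyury factor of the primitive streak, had 27.5 and 31.2 CPM in gated cells, 4.08 and 1.72 in other blastoid cells and 0 in stem cells. Among the 9, TMPRSS11E followed the mean of the other 8 most closely (0.991), then DMD (0.984), GAD1 (0.974) and HPGD (0.961), and C9orf135 the least (0.698), which had more in stem cells than in other blastoid cells.

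Lists of pluripotent states place the gated cells beside these genes. Of 16 tested genes of the naive state, which resembles the epiblast before implantation, 9 rose and 0 fell against stem cells, with a median of 1.91. Over all tested genes 7.35% rose and 6.22% fell. The other 7 were not called, and DPPA3, ARGFX and ZFP42 were lower in both gated sums than in both stem cell sums. Only 17 of the 19 listed naive genes were counted in the series, and KLF17 and DNMT3L were not. KLF5 stood at 37.3 and 86.3 CPM against 0.964 and 1.76 (5.47 ± 0.41, edgeR adjusted p = 1.26e-05), and NLRP7, an oocyte and early embryo gene, at 11.8 and 19.2 against 0 and 0.189. Of 17 genes of the primed state, 11 fell and 1 rose, with a median of -1.33. SFRP1, a WNT antagonist, fell to 11.8 and 9.58 CPM from 642 and 726 (-6.17 ± 0.24, edgeR adjusted p = 9.61e-08), and OTX2 had 0 UMIs against 24.0 and 26.5 CPM. Against other blastoid cells, 10 of the 17 primed genes rose and 4 fell, and 12 of the 16 naive genes rose and 0 fell. There 12.7% of all tested genes rose and 14.2% fell. The fall of primed genes was not particular to gated cells. In other blastoid cells against stem cells, 15 of the 17 were lower and 0 higher, with a median of -2.41. Of the 16 naive genes, 6 were higher there and 8 lower, beside 26% and 23.6% of all tested genes. Other blastoid cells held SFRP1 at 77.1 and 84.4 CPM, OTX2 at 2.85 and 2.84 and KLF5 at 12.7 and 14.1. Of 8 tested germ cell genes, 3 rose and 0 fell against stem cells, and NANOS3, DND1, CD38 and DAZL were at 0 in both gated sums. SOX17, with 3 UMIs in all, lost its call without hESC 1 (edgeR adjusted p = 0.116) or hESC 2 (0.114), and TFAP2C and PRDM1 without blastoid 4 (0.103 and 0.178). Of 6 tested endoderm genes, 4 rose against stem cells and 0 rose against other blastoid cells, where GATA6 was at 108 and 80.2 CPM against 19.6 and 7.99 in gated cells (-2.92 ± 0.25, edgeR adjusted p = 4.31e-19). The other 3 that rose rested on 2 to 3 UMIs in gated cells. The call of GATA4 was lost without hESC 1 (edgeR adjusted p = 0.0875), hESC 2 (0.0885), blastoid 3 (0.086) or blastoid 4 (0.0697), that of APOA2 without blastoid 4 (0.0868), and that of SOX17 as given above.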

How the data were processed

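Single cells were profiled with 10x Genomics Chromium 3′ libraries (v3.1). The authors deposited 1 table per sample of raw UMI counts, genes by barcodes. Cell Ranger and GRCh38 are named in the submitters' processing notes, and the aligner version, annotation, strand setting and filters are not given in the sources used here. The 4 samples were grouped by their descriptions, because the titles of the blastoid samples and the names of their tables give different days. Where a table does not list a gene, 0 counts were used, and for lower bounds up to 2 barcodes were allowed to hold it.

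The 9 genes, the gene lists and the tests were chosen with earlier results of these data known. Cells with at least 500 genes were kept. Doublets were called with Scrublet (scanpy 1.11.5, expected rate 6%, score threshold 0.25) and left in, with an alternative without them. UMIs were summed per sample and class into 6 sums and compared by edgeR's quasi-likelihood test (edgeR 4.0.16, limma 3.58.1, R 4.3.3, TMM, filterByExpr by class, Benjamini-Hochberg adjustment over 16636 genes, called at 0.05), with the blastoid library as a term for gated against other blastoid cells. DESeq2 1.42.0 was an alternative. The standard error is the log2 difference divided by the square root of F. Where members were compared with stem cells or with other blastoid cells, gated cells enter both contrasts. Ratios are pooled CPM with exact 95% Poisson intervals, and shares have Clopper-Pearson intervals (scipy 1.17.1, numpy 2.4.6, pandas 2.3.3). Cells under 2000 UMIs were left out of thinned shares: 1 gated, 149 other blastoid and 1408 stem cells.

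Genes named are the 9 members, the gate and marker genes, the called genes with the largest change of each list (at most 4), and the 10 most alike genes over profiles of at least 20 cells. OTX2, PTGS2, HOXB13 and the calls of lists with 5 or fewer calls fall outside this rule in some comparisons and were named after their values were seen. Some genes that this rule names are not reported here. Promoters are RefSeq windows, and figures were drawn with matplotlib 3.10.9.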

Additional observations from a re-analysis of the deposited data

How the results depend on the processing

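Against stem cells 2258 genes were called, 4124 with a replicate block on the blastoid library, 1039 without shared barcodes and 921 to 3146 with 1 sample left out (921 without hESC 1, 1095 without hESC 2, 3146 without blastoid 3). Gated against other blastoid cells gave 4463, and 2837 with no replicate block, 2875 with DESeq2, 2642 for a change past 1 on the log2 scale, 1662 without shared barcodes and 1693 to 4214 with 1 sample left out. Other blastoid cells against stem cells gave 8242, then 4993 past 1 and 4928 to 10173 with 1 sample left out. Scaling by library size alone moved the share of higher calls from 54.2% to 67.1% against stem cells and from 52.4% to 63.2% for other blastoid cells against stem cells, with median shifts from 0.032 to 0.191 in the latter, and DESeq2 moved it from 47.2% to 56.3% for gated against other. The gated share of 3.36% became 5.61% with 2 or more gate genes and 0.923% after thinning. All 9 genes were higher in both gated sums than in the other sums, and so were 8 with 4 or more gate genes (all but PRAC1), 7 without shared barcodes and 8 after thinning. The block changed no member's call, and the replicate numbers of the 2 groups are not shared, so no paired analysis of stem cells and blastoids was possible because the labels pair none of them. Log2 differences turned or became 0 for TMPRSS13 against stem cells (-5.51 to 3.81 with 1 sample left out, -4.69 without shared barcodes), GATA4 and APOA2 (0.0 with 4 or more gate genes) and TDGF1 (0.01 there), and against other blastoid cells for SLC6A11 (-2.71 to 6.34), TFAP2C (-0.17 to 0.86) and FOXD3 (0.0 to 5.53) with 1 sample left out. The lower end in each is without blastoid 4. TMPRSS13, SLC6A11 and FOXD3 had 0 UMIs in the gated cells of blastoid 3, so without blastoid 4 no gated molecule of them is left. TFAP2C had 10 UMIs there, and the cause of its change was not tested. Of the log2 differences recomputed for named genes, 1635 kept their call, 190 lost it, 7 gained it and 8 turned. Allowing 2 counts for GAD1 in the stem cell table that omits it, a choice made after seeing the data, moved its ratio from 284 to 170. Depth limits NEURL1 and PRAC1 most, with 19 and 22 UMIs in gated cells.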

Other observations

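Outside the pluripotent gate, HPGD was concentrated in few cells. Other blastoid cells with 3 or more HPGD UMIs, a group chosen after its values were seen, numbered 162 (93 in blastoid 3 and 69 in blastoid 4), with a median of 9816.5 UMIs per cell against 7030.5 in the 3714 other blastoid cells without HPGD. Of the 162, 64 had the amnion and trophectoderm markers, 4 the mesenchyme markers, 5 both and 89 neither. Other blastoid cells that held HPGD, but under 3 UMIs, entered neither group. KRT7, a keratin of trophoblast and amnion, stood at 247 and 389 CPM in the 162 cells (blastoid 3 and blastoid 4). It was at 32.4 and 69.6 CPM in cells without HPGD and at 0 and 10.4 in pluripotent-gate cells. GATA2, a trophoblast transcription factor, was at 119 and 88.3 CPM against 10.6 and 13.0, and CCKBR, a cholecystokinin receptor, at 188 and 134 against 4.17 and 6.41. GABRP, a marker of amnion and trophectoderm, stood at 81.1 and 152 CPM against 56.2 and 136, and VTCN1 at 47.2 and 48.0 against 21.8 and 62.1. PLA2G2A followed HPGD into these cells, at 386 and 187 CPM against 10.8 and 6.75, which is above its level in the gated cells (39.3 and 112.6). It was not alone. TMPRSS11E stood at 77.5 and 41.3 CPM against 6.97 and 4.09, DMD at 137 and 84.9 against 19.4 and 13.8, and SPP1 at 56.9 and 32.4 against 9.78 and 18.3. These 3 stayed below their levels in gated cells. COL3A1 was lower, at 36.3 and 86.0 CPM against 1160 and 607.

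CGA, which encodes the alpha chain of chorionic gonadotropin, was detected in 6 of the 162 cells. Over these 162 it was at 418 CPM in blastoid 3 and 13.4 in blastoid 4. CYP19A1, the placental aromatase, was at 258 and 22.3 CPM, from 20 cells. C9orf135 reached 38.8 and 42.5 CPM and POU5F1 178 and 156 in the same 162 cells, while SOX2 stayed at 6.05 and 7.82. No test was run on these values, because HPGD counts defined the cells.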
